A study of Mus musculus with 60 samples.

Results

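The short TCRβ CDR3 are the clonotypes of the CD4+ and CD8+ TCRB tables whose CDR3 amino acid sequence starts with cysteine, ends with phenylalanine or tryptophan, holds no other cysteine and is 11 residues or shorter. There were 2564 of them among the 67469 CD4+ rows that run from C to F or W, and 5199 among the 79525 such CD8+ rows, 7763 in all, beside 139231 rows that are longer or hold another cysteine. Of these members, 12 in CD4+ and 2 in CD8+ T cells were not above 0 in any of the 15 libraries of their table used here and so add nothing to any share. TCR-CDR3 sequencing was applied to C57BL/6 donor T cells that were WT, STAT3ko (Stat3 fl/fl with CD4-Cre, which deletes in T cells from the double-positive thymocyte stage) or STAT3koPD-1ko (the same cross on a germline PD-1-/- background). Spleen T cells were taken before hematopoietic cell transplantation (HCT). H-2Kb+TCRβ+ CD4+ and CD8+ donor T cells were sorted from liver and gut on day 6 after transfer. The transfer, with T cell-depleted bone marrow, was into lethally irradiated WT BALB/c recipients. Every day 6 group thus carried WT donor marrow and an irradiated allogeneic host, and genotype refers to the donor T cells only. Each cell type had 3 spleen libraries, 1 per genotype, and 2 liver and 2 gut libraries per genotype, each day 6 library from lymphocytes pooled over 3 recipients.

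CDR3β is the part of the TCR β chain made at the junction of a V, a D and a J segment, and it is the loop that mostly contacts the peptide held by an MHC molecule. Nucleases trim the segment ends and terminal transferase adds untemplated bases, so a short CDR3 arises when trimming outweighs addition. Short loops carry fewer untemplated bases and are known to recur between animals more often than long ones.

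The sequences below are shown because they are the recurrent members, the most frequent member of a site, or the shortest members. Each is the 1 nucleotide sequence that the table gives for that amino acid sequence, 5′ to 3′, with capitals for the bases that match neither the germline V end nor the germline J start, read from GENCODE M21 on GRCm38.
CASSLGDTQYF, CD4+, TRBV14 and TRBJ2-5, above 0 in 15 libraries: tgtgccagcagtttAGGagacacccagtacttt
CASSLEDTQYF, CD4+, TRBV13-1 and TRBJ2-5, above 0 in 14 libraries: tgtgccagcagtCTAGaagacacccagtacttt
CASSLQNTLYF, CD4+, TRBV14 and TRBJ2-4, highest mean of the spleen: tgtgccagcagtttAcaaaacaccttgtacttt
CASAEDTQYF, CD4+, TRBV29 and TRBJ2-5, highest mean of the liver: tgtgctagcGCAGaagacacccagtacttt
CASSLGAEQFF, CD8+, TRBV29 and TRBJ2-1, above 0 in 15 libraries: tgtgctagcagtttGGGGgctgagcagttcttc
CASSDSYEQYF, CD8+, TRBV13-3 and TRBJ2-7, above 0 in 15 libraries: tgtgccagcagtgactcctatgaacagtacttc
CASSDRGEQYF, CD8+, TRBV13-1 and TRBJ2-7, above 0 in 15 libraries: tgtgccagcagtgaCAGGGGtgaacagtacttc
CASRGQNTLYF, CD8+, TRBV29 and TRBJ2-4, above 0 in 15 libraries: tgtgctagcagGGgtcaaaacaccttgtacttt
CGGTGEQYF, CD8+, TRBV14 and TRBJ2-7, highest mean of the spleen: tgtgGTGGGACTGGGgaacagtacttc
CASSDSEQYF, CD8+, TRBV13-1 and TRBJ2-7, highest mean of the gut: tgtgccagcagtgatTCtgaacagtacttc
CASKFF, CD8+, TRBV16 and TRBJ2-1, 6 residues: tgtgcaagcaagttcttc
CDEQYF, CD8+, TRBV17 and TRBJ2-7, 6 residues: tgtgatgaacagtacttc
TRBJ2-7, germline part inside a CDR3: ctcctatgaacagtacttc
TRBJ1-6, germline part inside a CDR3: ttcctataattcgcccctctacttt
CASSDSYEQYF, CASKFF and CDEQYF had no base outside the V and J germline match, whereas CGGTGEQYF had 11 such bases. D segments were not matched, and TRBD2 was called for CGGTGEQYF, so these bases can be germline D bases. TRBJ2-7 brings 19 germline bases and TRBJ1-6 brings 25, the fewest and the most of the 12 J segments. On mm10, the build named in the labels, TRBJ2-7 lies on chromosome 6 at 41543810 to 41543856, TRBJ1-1 at 41533864 to 41533911, TRBV29 at 41271394 to 41271881 and TRBV13-1 at 41116007 to 41116468, all on the plus strand of the TCRβ locus.

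Several features of the tables limit what follows. The values are fractions of a library's reads, without counts, so the depth behind a value is unknown. The join keeps only clonotypes found in at least 2 of 18 joined libraries, and these made up 47.8% to 97.2% of reads in CD4+ and 53.2% to 98.4% in CD8+ libraries. Each amino acid sequence is listed once per table, with 1 V, 1 J and 1 nucleotide sequence. Of 1046 short CDR3 present in both tables, 96.9% had the same J but only 28.6% the same V label and 18.8% the same nucleotides, so a V label names 1 of possibly several rearrangements behind a member. The gut replicate 2 libraries stood apart, with 47.8% to 51.5% of reads listed in CD4+ and 53.2% to 58.0% in CD8+ T cells, and with 1.99% to 3.99% of frequency in CDR3 of 16 residues or more against 5.63% to 8.41% in the other libraries. The liver replicate 1 libraries shared 44.8% ± 9.20 (SD, n = 3) of their short CDR3 frequency with the spleen library of the same genotype in CD4+ and 48.7% ± 8.65 (SD, n = 3) in CD8+ T cells, against 6.83% and 11.8% with the spleens of other genotypes and 8.04% and 13.1% for liver replicate 2 with its own spleen. The gut replicate 1 libraries also shared more of it with their own spleen, 22.7% ± 2.66 in CD4+ and 26.9% ± 3.15 in CD8+ T cells (SD, n = 3), against 9.18% and 14.8% with the other spleens. With the liver libraries of their genotype they shared 30.3% (replicate 1) and 29.9% (replicate 2) in CD4+ and 38.1% and 40.2% in CD8+ T cells, whereas the 2 liver replicates of a genotype shared 9.37% and 16.3% with each other. Results are therefore also given without the gut replicate 2, the gut replicate 1 or the liver replicate 1 libraries where that changed them. The study's methods name 2 batches of libraries, each made from 3 mice, and the labels do not tie them to replicate numbers. The tests treat these libraries as independent, and p-values measure the spread between them. If libraries share animals, in any of the contrasts below, their number overstates the replicates behind a p-value.

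Short CDR3 made up a larger share of the CD8+ than of the CD4+ repertoire in every library. The share is the summed frequency of the members divided by that of all C-to-F/W rows. In CD4+ T cells it was 3.78%, 4.06% and 4.75% in the WT, STAT3ko and STAT3koPD-1ko spleen, it ran from 3.54% to 4.76% with a median of 3.95% in the 6 liver libraries and from 3.45% to 4.48% with a median of 3.78% in the 6 gut libraries. The CD8+ spleen values were 10.8%, 10.8% and 11.1%, those of the liver ran from 9.86% to 10.997% with a median of 10.4%, and those of the gut from 9.17% to 12.3% with a median of 10.5%. The lowest CD8+ library was thus above the highest CD4+ library, and the CD8+ value was higher in 15 of 15 library pairs of the same site, genotype and replicate number, on average 2.66 ± 0.27 times (SD, n = 15). The tables were joined separately, and the difference was not tested.

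**Figure D1:**
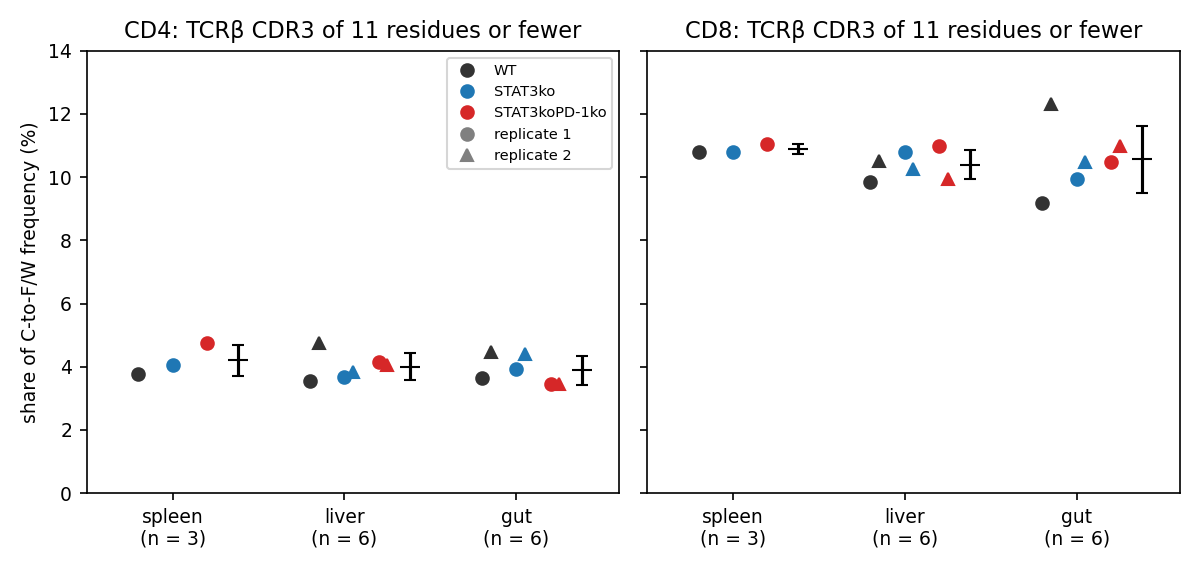
Share of the C-to-F/W frequency in CDR3 of 11 residues or fewer (%, y axis) in each library by site (x axis), for CD4+ (left) and CD8+ T cells (right); colour gives the genotype, symbol the replicate number, and the cross with bars the mean ± SD of the site. CD4+ values sit between 3.45% and 4.76% and CD8+ values between 9.17% and 12.3%, with the 3 sites overlapping in each.

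As a share of C-to-F/W frequency, short CDR3 did not differ detectably between sites. In CD4+ T cells it was 4.20% ± 0.50 (SD, n = 3) in spleen, 4.01% ± 0.43 (SD, n = 6) in liver and 3.89% ± 0.46 (SD, n = 6) in gut. In CD8+ T cells it was 10.9% ± 0.15 (SD, n = 3), 10.4% ± 0.46 (SD, n = 6) and 10.6% ± 1.05 (SD, n = 6). The gut share was 0.97 times the liver share in CD4+ T cells, with a 95% interval of the ratio from 0.81 to 1.16 (exact two-sided permutation test within genotype, p = 0.657, adjusted p = 0.843). For CD8+ T cells this ratio was 1.01, with an interval from 0.92 to 1.14 (exact permutation p = 0.843, adjusted p = 0.843). Against spleen, the 4 comparisons of liver and gut each gave an adjusted p of 0.571 in the exact permutation test, and their intervals ran from 0.75 to 1.15 times in CD4+ and from 0.83 to 1.14 times in CD8+ T cells. These results depended on how the share was formed. With each clonotype counted once, CD8+ liver was lower than spleen (log2 difference -0.081, exact permutation adjusted p = 0.0476). Summed as deposited, the gut values were lower than the liver values in CD4+ (log2 difference -0.85, exact permutation p = 0.00926) and in CD8+ T cells (log2 difference -0.44, exact permutation p = 0.00926), the smallest p this test can give. Divided by all listed rows, the CD4+ gut values were lower than those of spleen (log2 difference -0.48, exact permutation p = 0.0119, adjusted p = 0.0476) and of liver (log2 difference -0.35, exact permutation p = 0.0185, adjusted p = 0.0370). C-to-F/W rows made up 71.2% to 75.5% of listed CD4+ frequency in gut, 87.1% to 92.3% in liver and 93.7% to 95.1% in spleen, against 97.5% to 99.0% in all CD8+ libraries. In the gut libraries the listed clonotypes made up 47.8% to 83.6% of reads in CD4+ and 53.2% to 93.8% in CD8+ T cells, against 85.6% to 93.5% and 93.2% to 96.3% in liver, and their part in this difference was not tested. With CDR3 of bulk libraries, fewer cells with a clonotype and less TCR RNA per cell cannot be told apart.

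Nor did the short share differ detectably between donor genotypes on day 6. Among CD4+ libraries the share was 4.11% ± 0.61 in WT, 3.96% ± 0.31 in STAT3ko and 3.78% ± 0.38 in STAT3koPD-1ko T cells (SD, n = 4 libraries). Among CD8+ libraries it was 10.5% ± 1.34, 10.4% ± 0.36 and 10.6% ± 0.50 in the same order. The genotypes overlapped in each cell type, and all 6 comparisons had an adjusted p of 1.0 in the exact permutation test within site, which cannot go below p = 0.0556.

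Most members were at the upper limit of the length rule. CDR3 of 11 residues made up 2052 of the 2564 CD4+ and 4087 of the 5199 CD8+ members, and 85.3% ± 5.60 and 80.0% ± 3.04 of member frequency (SD, n = 15). Members of 10 residues held 10.6% ± 4.92 of it in CD4+ and 17.4% ± 2.48 in CD8+ T cells, and those of 6 to 8 residues were 60 CD4+ and 85 CD8+ clonotypes. Just inside the limit, rows of 11 residues, those with another cysteine included, took 3.83% of C-to-F/W frequency in CD4+ and 8.57% in CD8+ T cells on average, and just outside it rows of 12 residues took 11.3% and 15.4%. A further 217 CD4+ and 151 CD8+ rows of 11 residues or fewer held another cysteine and were not members. Of these, 207 and 127 were TRBV1, whose germline end encodes that cysteine.

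**Figure D2:**
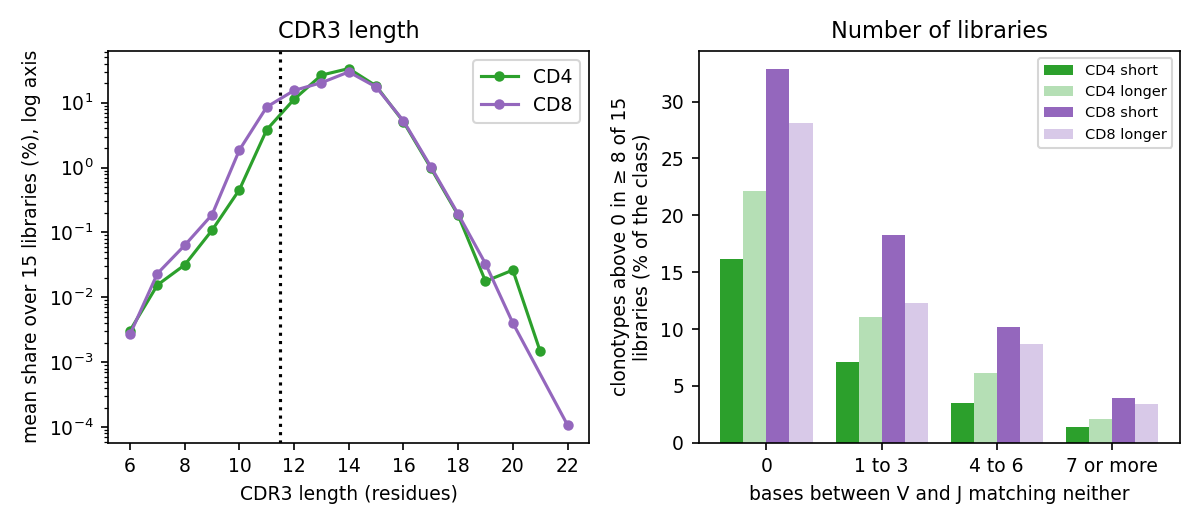
Left, mean share of C-to-F/W frequency over 15 libraries (%, log axis) by CDR3 length in residues, all C-to-F/W rows, with the 11-residue limit dotted; right, share of clonotypes above 0 in at least 8 of 15 libraries (%) by the number of bases that match neither V nor J, for members (short) and all other C-to-F/W rows (longer). CD8+ values lie above CD4+ values from 7 to 12 residues, and the share found in at least 8 libraries falls with the number of unmatched bases from 32.8% to 3.96% in CD8+ members.

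Short CDR3 were most often joined to TRBJ2-7 and TRBJ1-1. TRBJ2-7 carried 34.2% ± 5.51 of member frequency in CD4+ T cells against 17.8% ± 1.44 of the frequency of longer CDR3, and 48.2% ± 3.46 against 23.1% ± 1.44 in CD8+ T cells (SD, n = 15), and was higher among members in 15 of 15 libraries of each table. TRBJ1-1 carried 18.9% ± 4.86 against 11.5% ± 1.49 in CD4+ and 19.4% ± 2.55 against 12.4% ± 0.90 in CD8+ T cells, and was higher among members in 14 and 15 libraries. The other J segments with the highest shares in CD4+ members were TRBJ2-5 at 15.5%, TRBJ2-4 at 7.80% and TRBJ2-1 at 7.67%, and in CD8+ members TRBJ2-1 at 10.5%, TRBJ2-4 at 5.80% and TRBJ2-5 at 5.71%. TRBJ2-1 was lower among CD8+ members than among longer CDR3 (16.001%) in all 15 libraries. Within TRBJ2-7, whose germline part is the shortest, short CDR3 made up 7.45% of CD4+ and 19.8% of CD8+ frequency, and within TRBJ1-6, whose germline part is the longest, 0.69% and 1.00%. Since length decides membership, the length of a J segment is not independent of the rule, and these contrasts are a description without a test.

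The V labels of the members differed between the cell types, under the limit on V labels stated above and without a test. In CD4+ T cells, TRBV15 carried 14.5% ± 4.47 of member frequency, against 6.54% ± 1.21 of longer CDR3 and higher in 15 of 15 libraries. TRBV16 followed with 12.9% ± 3.17, which was below its 16.9% among longer CDR3 in 13 of 15 libraries, then TRBV13-1 with 12.3% ± 4.32, TRBV14 with 9.91% ± 4.64 and TRBV13-2 with 7.73% ± 2.50. Among CD8+ members, TRBV29 carried 27.9% ± 3.93, against 20.3% ± 1.92 of longer CDR3, and TRBV13-1 17.99% ± 2.90 against 11.4% ± 1.75, each higher among members in 15 of 15 libraries. TRBV14 with 10.8%, TRBV13-3 with 10.5% and TRBV13-2 with 7.52% completed the first 5. TRBV12-1, TRBV12-2 and TRBV16 were lower among CD8+ members than among longer CDR3 in all 15 libraries, with 3.57%, 3.17% and 3.38% against 6.72%, 7.34% and 6.55%. The most frequent V and J pair was TRBV29 with TRBJ2-7 in CD8+ members (413 clonotypes, 12.1% ± 1.62) and TRBV16 with TRBJ2-7 in CD4+ members (100 clonotypes, 5.60% ± 2.01).

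**Figure D3:**
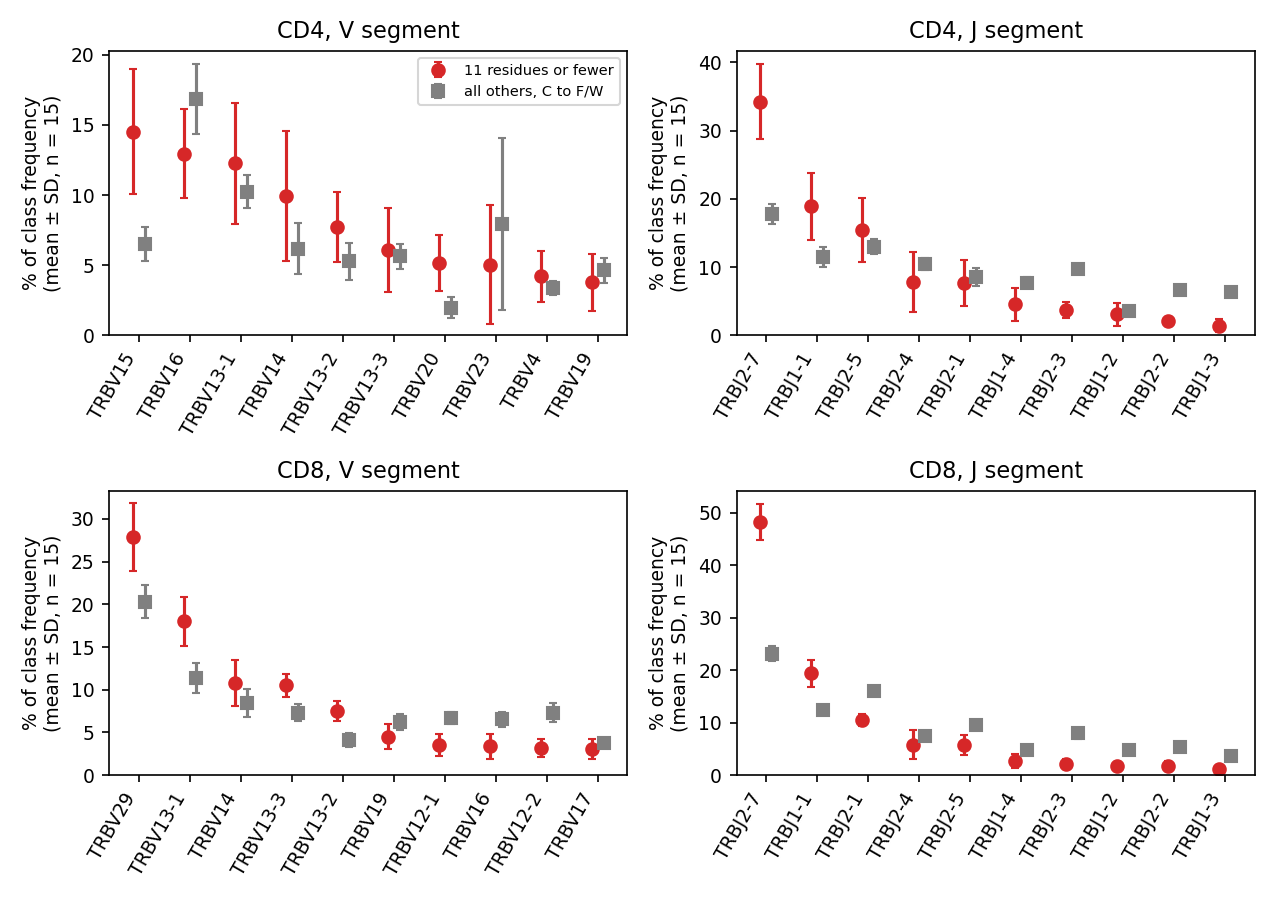
Percent of class frequency (y axis, mean ± SD over 15 libraries) carried by the 10 V (left) and J segments (right) most frequent among members, for CDR3 of 11 residues or fewer (red circles) and all other C-to-F/W rows (grey squares), in CD4+ (top) and CD8+ T cells (bottom). TRBJ2-7 and TRBJ1-1 stand above their grey squares in each cell type, as do TRBV15 in CD4+ and TRBV29 and TRBV13-1 in CD8+ T cells.

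By mean over libraries, the short share was higher in CD8+ than in CD4+ T cells within most segments, but in all 15 pairs of libraries within few. Within each of the 12 J segments that held at least 0.5% of frequency in both tables, the CD8+ mean was above the CD4+ mean, and it was so within 12 of 16 V segments, TRBV1 left out because the cysteine rule bars most of its rows. The CD8+ value was higher in all 15 pairs within 4 J and 3 V segments, and in at least 12 pairs within 10 of each kind. It was higher in fewer pairs within TRBJ1-2 (8 of 15), TRBJ1-6 (9 of 15), TRBV4 (8 of 15) and TRBV20 (10 of 15), whose CD8+ means were nonetheless the higher ones. Within TRBV13-1 it was 4.71% ± 1.54 in CD4+ and 15.8% ± 1.51 in CD8+, within TRBV13-2 6.24% ± 3.18 and 18.2% ± 4.44, and within TRBV13-3 4.44% ± 2.28 and 14.7% ± 3.11 (SD, n = 15), the 3 V segments with a higher CD8+ value in 15 of 15 pairs. The 4 V segments with a lower CD8+ mean were TRBV12-1, TRBV15, TRBV2 and TRBV3. The CD8+ value was nonetheless higher in 9 of 15 pairs within TRBV12-1, in 8 within TRBV15 and in 7 within TRBV2. For TRBV12-1 the values were 5.97% ± 5.49 in CD4+ and 5.77% ± 1.44 in CD8+ T cells. For TRBV15 the values were 8.52% ± 2.28 and 8.26% ± 3.54, which overlapped, and for TRBV3 3.34% ± 1.38 and 1.35% ± 0.95, higher in CD8+ in 1 of 15 pairs. Reweighted to the V mix of the CD4+ library of the same site, genotype and number, the CD8+ short share was 8.36% ± 1.32, to its J mix 9.29% ± 0.63 and to its V and J mix 7.29% ± 0.76 (SD, n = 15), above the CD4+ value in 15 of 15 pairs each time. The V labels behind 2 of these values carry the limit stated above.

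**Figure D4:**
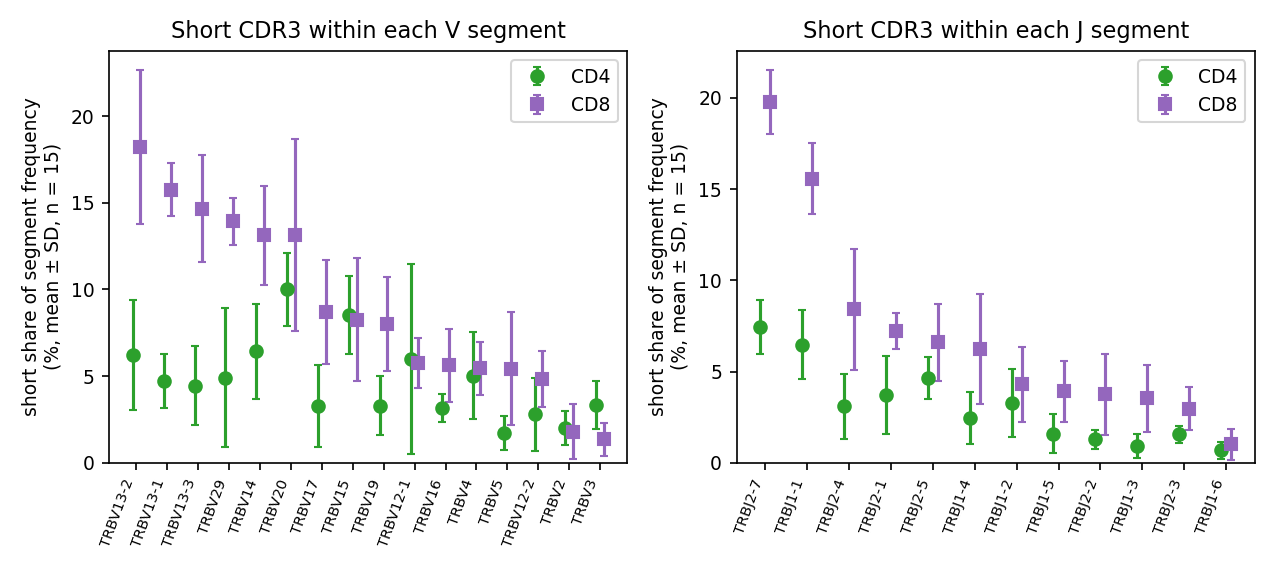
Short share of the frequency of each V (left) and J segment (right) in CD4+ (green circles) and CD8+ T cells (purple squares), mean ± SD over 15 libraries, for segments with at least 0.5% of frequency in both tables. CD8+ means lie above CD4+ means in 12 of 12 J segments and 12 of 16 V segments, TRBV1 left out.

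The middle of short CDR3 held less glycine and more acidic and hydrophobic residues than that of longer CDR3. Of the 3 central residues, weighted by frequency, glycine made up 12.4% ± 2.26 in CD4+ members against 31.6% ± 0.88 in longer CDR3, and 19.6% ± 1.22 against 35.2% ± 1.08 in CD8+ T cells (SD, n = 15). Aspartate and glutamate made up 21.2% ± 3.36 against 9.90% ± 0.67 in CD4+ and 15.4% ± 1.101 against 7.38% ± 0.43 in CD8+ T cells. Hydrophobic residues made up 28.0% ± 2.69 against 17.4% ± 0.98 in CD4+ and 28.0% ± 1.45 against 20.9% ± 0.83 in CD8+ T cells. The 3 sites lay close, with acidic residues at 19.6%, 22.1% and 21.0% of the CD4+ central residues in spleen, liver and gut. In the 11-residue members, counted from the cysteine, position 8 was glutamate in 55.6% of CD4+ and 73.6% of CD8+ frequency, as in the EQYF and EVFF ends of TRBJ2-7 and TRBJ1-1. Position 5, before the J part, was most often leucine in CD4+ (28.5% ± 4.30) and aspartate in CD8+ T cells (21.2% ± 3.19), and position 6 was most often glycine in each (20.2% ± 5.80 and 37.1% ± 2.98). CDR3 ending with EQYF made up 31.5% of CD4+ and 45.1% of CD8+ member frequency, against 17.5% and 22.9% of longer CDR3, and those ending with TLYF, the end of TRBJ2-4, TRBJ2-3 and TRBJ1-3, 11.7% and 8.47% against 26.3% and 19.0%. The CASR start, with arginine after the germline serine, was held by 8.34% and 9.94% of member frequency against 3.503% and 4.25%, higher in 15 of 15 libraries of each table. In the classes the central residues lie at different distances from the V and J ends.

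Short CDR3 had fewer bases that matched neither the V nor the J germline. These bases include those of the D segment, so added and D bases cannot be told apart in them. Since length decides membership, neither their number nor the call of a D segment is independent of the rule, and both are a description without a test. A median of 5 bases in CD4+ and 6 in CD8+ members were unmatched, against 10 in longer CDR3 of each table, and the quartiles were 3 and 7 in CD4+ and 4 and 8 in CD8+ members. No such base was left in 124 CD4+ members (4.84%) and 131 CD8+ members (2.52%), against 0.146% and 0.0861% of longer CDR3. A D segment, which is short and lies between V and J, was not called for 79.6% ± 6.36 of CD4+ and 66.5% ± 4.53 of CD8+ member frequency, against 31.1% ± 2.93 and 27.0% ± 1.36 of longer CDR3.

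Members recurred in more libraries than longer CDR3, and more so in CD8+ T cells. CD8+ members were above 0 in 3.56 libraries on average, against 2.87 for longer CDR3, and 500 of 5199 (9.62%) were above 0 in at least 8 libraries, against 4.20%. In CD4+ T cells the means were 2.78 and 2.60, and 112 of 2564 members (4.37%) were above 0 in at least 8 libraries, against 2.93%. All 15 libraries held 51 CD8+ members (0.981%, against 0.182% of longer CDR3) and 1 CD4+ member (0.0390%, against 0.0693%). Of the short clonotypes listed in a library, 30.8% ± 5.54 in CD8+ and 17.9% ± 5.80 in CD4+ T cells were above 0 in at least 8 libraries, against 16.3% ± 4.41 and 13.2% ± 5.31 of longer ones (SD, n = 15), higher for members in 15 of 15 libraries of each table. The 51 CD8+ members of all libraries included 37 with TRBJ2-7 and 5 with no unmatched base, and summed to 13.1% ± 1.75 of CD8+ member frequency. At a like number of unmatched bases the order turned in CD4+ but not in CD8+ T cells. Of members with 1 to 3 such bases, 18.3% of CD8+ and 7.14% of CD4+ were above 0 in at least 8 libraries, against 12.3% and 11.1% of longer CDR3 with 1 to 3. Because rearrangements with the same amino acids are merged, these counts are of amino acid sequences, and libraries that share a source count more than once.

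Members were found at each site and in each genotype, but many were above 0 in 1 genotype only, as were longer CDR3. In CD8+ T cells 4677 members were above 0 in liver (90.0%, against 88.2% of longer CDR3) and 4572 in gut (87.9%, against 85.3%). Spleen, which had fewer libraries, held 2118 (40.7%, against 34.8%). Above 0 in every library of the site were 108 (2.08%, against 0.509%), 147 (2.83%, against 0.926%) and 105 (2.02%, against 0.601%). Among CD4+ members these counts were 2275 (88.7%, against 89.9%), 1812 (70.7%, against 69.9%) and 1123 (43.8%, against 41.2%). In every library were 17 (0.663%, against 0.490%), 5 (0.195%, against 0.166%) and 39 (1.52%, against 0.767%). Among the 5 libraries of a genotype, CD8+ members were above 0 on average in 1.16 WT, 1.11 STAT3ko and 1.29 STAT3koPD-1ko libraries, and CD4+ members in 1.15, 0.83 and 0.80. Longer CDR3 showed the same order, with 0.94, 0.89 and 1.04 in CD8+ and 1.08, 0.81 and 0.71 in CD4+ T cells. All 3 genotypes held 972 CD8+ members (18.7%, against 10.2% of longer CDR3) and 288 CD4+ members (11.2%, against 8.15%). By amino acid sequence, 1046 members were present in both the CD4+ and the CD8+ table, which is 40.8% of CD4+ and 20.1% of CD8+ members, against 24.04% and 20.99% of longer CDR3.

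The 6 members of each table that were above 0 in the most libraries reached at most 0.332% in any library, and the highest single value came from a clonotype of 3 libraries. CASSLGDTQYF, the only CD4+ member of all 15 libraries, was at 0.00232%, 0.00622% and 0.00651% of C-to-F/W frequency in the WT, STAT3ko and STAT3koPD-1ko spleen. In liver it ran from 0.00778% to 0.104% with a median of 0.0162%, and in gut from 0.0106% to 0.0434% with a median of 0.0199%. All 12 day 6 values were above the 3 spleen values, and the clonotype did not pass the test over all clonotypes. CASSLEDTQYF, above 0 in 14 CD4+ libraries, was at 0.0150%, 0.0583% and 0.116% in the WT, STAT3ko and STAT3koPD-1ko spleen, and its liver (0.0111% to 0.0620%) and gut values (0% to 0.105%) overlapped with them.

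Among CD8+ members, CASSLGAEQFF had the highest mean of those in all libraries. It was at 0.292%, 0.0162% and 0.141% in the WT, STAT3ko and STAT3koPD-1ko spleen, from 0.00743% to 0.125% with a median of 0.0482% in liver and from 0.0230% to 0.104% with a median of 0.0529% in gut. These ranges overlapped, as did those of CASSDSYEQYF, which V and J germline bases account for in full and which was at 0.101%, 0.0454% and 0.0188% in spleen, 0.0152% to 0.121% in liver and 0.0149% to 0.158% in gut. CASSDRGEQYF was from 0.0245% to 0.0327% in spleen, and all 6 liver values, 0.0341% to 0.105%, were above these, while the gut values of 0.0215% to 0.0825% overlapped with them. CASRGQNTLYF was at 0.332% in 1 STAT3ko liver library and at or below 0.0913% in the other 14 libraries.

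The highest value of any member was that of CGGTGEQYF in CD8+ T cells. It was at 0.840% in the WT spleen, 0.140% in WT liver replicate 1 and 0.00836% in WT gut replicate 1, and listed at 0 in the other 12 libraries. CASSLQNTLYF in CD4+ T cells was at 0.461% in the STAT3ko spleen and at 0.0395% in STAT3ko liver replicate 1, and at or below 0.0497% elsewhere. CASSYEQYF, also CD4+ and 9 residues with no unmatched base, was at 0.296% in the STAT3ko spleen and at or below 0.0331% in the other CD4+ libraries. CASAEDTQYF was at 0.436% in STAT3ko liver replicate 2 and at or below 0.00424% elsewhere, and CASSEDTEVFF, the CD4+ member with the highest gut mean, at 0.367% in STAT3koPD-1ko gut replicate 2 and at or below 0.00458% elsewhere. Of the CD8+ members, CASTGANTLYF had the highest liver mean, with 0.674% in STAT3ko liver replicate 2 and at most 0.0655% elsewhere, and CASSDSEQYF the highest gut mean, with 0.562% in STAT3koPD-1ko gut replicate 1 and at most 0.0274% elsewhere. The member with the highest mean of a site thus owed it to 1 library in each site and cell type. The 34 clonotypes named by the rule, 18 CD4+ and 16 CD8+, had means over the 15 libraries from 0% to 0.0743%, and the 0% was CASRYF, a 6-residue CD8+ member listed at 0 in all of them. The 6-residue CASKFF was above 0 in 3 CD8+ libraries, all replicate 1 of WT, at 0.0146% in spleen, 0.0203% in liver and 0.00418% in gut.

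With all libraries, no single member passed the test between sites or genotypes. In limma on log2(percent + 0.001), 69 of the 1261 CD4+ and 297 of the 1785 CD8+ clonotypes tested were members, and none had an adjusted p below 0.05 (Benjamini-Hochberg over all clonotypes of a table and contrast) in any of 5 contrasts. The share of all clonotypes called was 0% in 9 of the 10 fits and 0.168% (3 clonotypes) for CD8+ STAT3ko against WT. Without the gut replicate 2 libraries, or without STAT3ko liver replicate 2 alone, 1 member was called in that contrast, and without STAT3koPD-1ko gut replicate 2 alone 1 CD4+ member was called for STAT3koPD-1ko against STAT3ko. At an unadjusted p below 0.05 there were 0 CD4+ and 8 CD8+ members for gut against liver, which is 0% and 2.69% of the members tested beside 3.73% and 4.03% of all clonotypes tested. For day 6 against spleen there were 3 and 21 members, 4.35% and 7.07% beside 3.57% and 6.89% of all. The genotype contrasts gave 1 and 27 members for STAT3ko against WT (1.45% and 9.09% beside 8.72% and 12.5%), 3 and 29 for STAT3koPD-1ko against WT (4.35% and 9.76% beside 9.28% and 9.64%), and 7 and 26 for STAT3koPD-1ko against STAT3ko (10.1% and 8.75% beside 9.60% and 10.2%). The median log2 difference of the CD8+ members between day 6 and spleen was 0.60, beside 0.63 over all clonotypes tested.

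Of the V segments, as labelled in the tables, 3 short classes passed the test. Each V was divided into short and longer CDR3 and tested in limma on log2(percent + 0.01), 15 short classes among 36 in each table. In CD4+ T cells 2 short classes, TRBV23 and TRBV12-2, were higher on day 6 than in spleen, beside 16.7% of all 36 classes called. In CD8+ T cells the short TRBV16 class was lower in STAT3koPD-1ko than in WT T cells, beside 2.78% of classes called. In all other V contrasts no short class was called, and the share of classes called was 22.2% for CD4+ gut against liver and 0% in the rest. At an unadjusted p below 0.05 there were 3 CD4+ and 2 CD8+ short V classes for gut against liver (20.0% and 13.3% of the 15, beside 38.9% and 36.1% of all 36 classes) and 2 and 3 for day 6 against spleen (13.3% and 20.0%, beside 11 and 9 of all 36 classes). For STAT3ko against WT there were 2 and 1 (13.3% and 6.67%, beside 5.56% of all in each table), for STAT3koPD-1ko against STAT3ko 3 and 0 (20.0% and 0%, beside 16.7% and 8.33%), and for STAT3koPD-1ko against WT 1 and 1 (6.67% in each, beside 13.9% and 11.1%). Without the gut replicate 1 libraries 3 short classes were called for CD4+ gut against liver. Without the gut replicate 2 libraries 1 was called there, 2 for CD8+ gut against liver, 1 for CD8+ STAT3koPD-1ko against STAT3ko and 3 for CD8+ STAT3koPD-1ko against WT.

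Short TRBV23 CDR3, 197 CD4+ members, were at 0.0451%, 0.0419% and 0.0536% of C-to-F/W frequency in the WT, STAT3ko and STAT3koPD-1ko spleen. They ran from 0.0908% to 0.178% with a median of 0.145% in liver and from 0.121% to 0.602% with a median of 0.283% in gut. All 12 day 6 libraries were above the 3 spleens. The log2 difference between day 6 and spleen was 1.88 (SE 0.37, limma adjusted p = 0.00208), and with a pseudocount of 0.1 it was 1.06 on that scale (limma adjusted p = 0.00927). Longer TRBV23 CDR3 moved likewise, from 1.93% ± 0.32 in spleen to 3.96% ± 0.86 in liver and 14.2% ± 3.12 in gut, with a log2 difference of 1.94 (SE 0.21, limma adjusted p = 2.21e-05). Between gut and liver the longer class differed by 1.83 on the log2 scale (SE 0.19, limma adjusted p = 6.73e-05) and the short class by 1.04 (SE 0.35, limma adjusted p = 0.0555), and the difference between the classes was not tested. Short CDR3 made up 2.45% ± 0.76 of TRBV23 frequency in spleen, 3.47% ± 1.03 in liver and 2.23% ± 0.90 in gut.

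Short TRBV12-2 CDR3, 47 CD4+ members, were low throughout. They were at 0.0324%, 0.00453% and 0.00751% in the 3 spleens, from 0.0145% to 0.0813% with a median of 0.0438% in liver and from 0.0167% to 0.159% with a median of 0.0825% in gut, so that the WT spleen lay within the day 6 range. The log2 difference between day 6 and spleen was 1.44 (SE 0.45, limma adjusted p = 0.0441), and it was no longer past the threshold without the gut replicate 2 libraries (1.33, adjusted p = 0.0531), without the gut replicate 1 libraries (1.56, adjusted p = 0.0555), with a pseudocount of 0.1 (0.47 on that scale, adjusted p = 0.114) or with no filter on low classes (adjusted p = 0.0799). It was also lost (adjusted p from 0.0502 to 0.238) without any 1 of 10 libraries, namely the 3 spleens, the 3 liver replicate 2 libraries, WT gut replicate 2, STAT3ko gut replicate 1 and both STAT3koPD-1ko gut libraries. Longer TRBV12-2 CDR3 were higher by 0.78 (SE 0.14, limma adjusted p = 0.00128).

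Short TRBV16 CDR3, 210 CD8+ members, are described because they passed the test for STAT3koPD-1ko against WT, where they were lower. In liver and gut they were at 0.553%, 0.408%, 0.498% and 0.589% in WT, at 0.313%, 0.302%, 0.192% and 0.327% in STAT3ko and at 0.249%, 0.285%, 0.217% and 0.160% in STAT3koPD-1ko libraries (liver replicates 1 and 2, then gut replicates 1 and 2). The WT values did not overlap with either of the others, and STAT3ko and STAT3koPD-1ko values overlapped. The log2 difference was -1.15 for STAT3koPD-1ko against WT (SE 0.21, limma adjusted p = 0.00797), -0.85 for STAT3ko against WT (SE 0.21, limma adjusted p = 0.0741) and -0.31 between STAT3koPD-1ko and STAT3ko (SE 0.21, limma adjusted p = 0.719). The first was no longer past the threshold without the liver replicate 1 libraries (-1.16, limma adjusted p = 0.161) or without the gut replicate 1 libraries (-1.15, limma adjusted p = 0.0564). The spleen libraries, which this contrast did not use but which share short clonotypes with liver replicate 1 and, to a lesser extent, gut replicate 1, held 0.689% in WT, 0.307% in STAT3ko and 0.242% in STAT3koPD-1ko T cells before HCT. With 1 spleen library per genotype these have no replicate. The labels do not say whether liver and gut libraries of a genotype came from the same recipients, and WT gut replicate 1 shared 43.7% and 41.3% of its short CD8+ frequency with WT liver replicates 1 and 2, which shared 14.8% with each other. If they share animals, 4 libraries per genotype overstate the replicates behind these p-values, which are then too small. Longer TRBV16 CDR3 were at 6.39% ± 0.74 in WT and 5.42% ± 0.36 in STAT3koPD-1ko day 6 libraries (SD, n = 4), a log2 difference of -0.23 (SE 0.12, limma adjusted p = 0.399). In CD4+ T cells short TRBV16 CDR3 were at 0.521% ± 0.14 in WT, 0.495% ± 0.20 in STAT3ko and 0.588% ± 0.11 in STAT3koPD-1ko libraries (SD, n = 4), which overlapped.

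**Figure D5:**
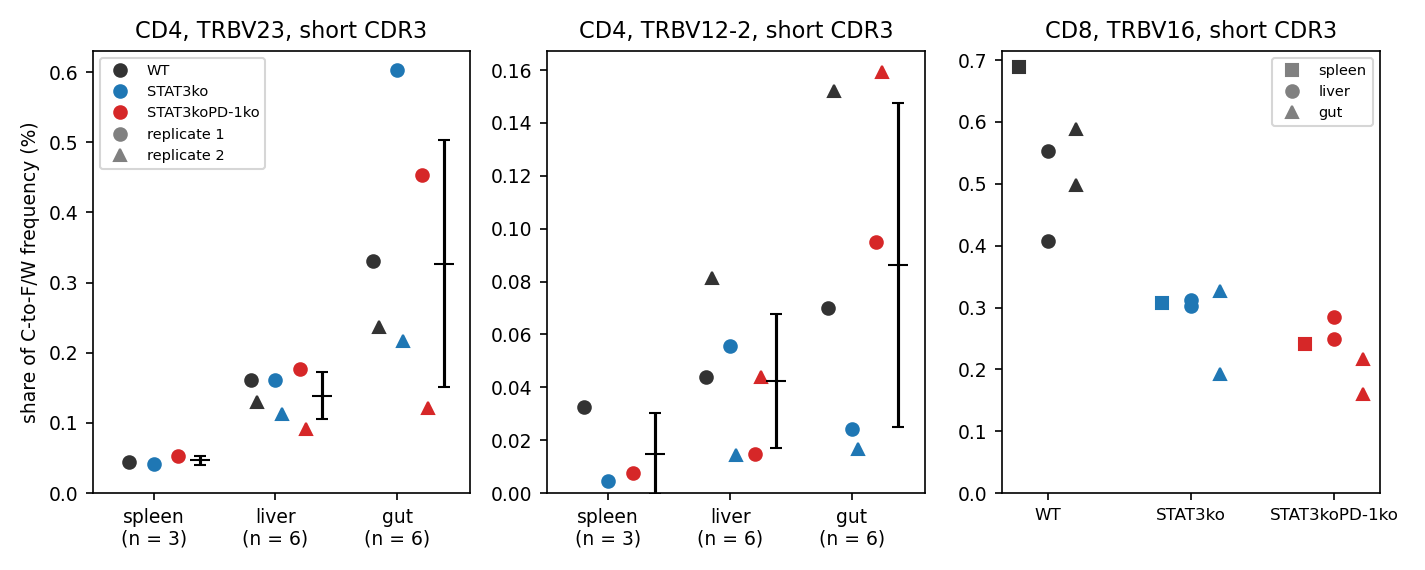
Share of C-to-F/W frequency (%, y axis) of short TRBV23 (left) and short TRBV12-2 CDR3 (middle) in CD4+ libraries by site, colour for genotype and symbol for replicate number, with mean ± SD at the right of each site, and of short TRBV16 CDR3 in CD8+ libraries by genotype (right), symbol for site. All 12 day 6 values of TRBV23 exceed the spleen values of 0.0419% to 0.0536%, and all 5 WT values of TRBV16 exceed the values of the other genotypes.

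No J segment and no length of the members passed the test. In limma, 10 short J classes of 22 tested in CD4+ and 11 of 23 in CD8+ T cells gave 0 calls over 5 contrasts, beside 0% of all J classes called. At an unadjusted p below 0.05 there were 0 short classes in each table for gut against liver (beside 13.6% of all CD4+ and 0% of all CD8+ J classes) and 0 and 1 for day 6 against spleen (beside 4.55% and 21.7%). Of the genotype contrasts, STAT3ko against WT gave 1 and 2 (beside 4.55% and 13.0%), STAT3koPD-1ko against WT 1 and 0 (beside 9.09% and 0%), and STAT3koPD-1ko against STAT3ko 1 and 1 (beside 4.55% and 8.70%). Lengths of 9, 10 and 11 residues were tested among 10 lengths per table, all C-to-F/W rows included, with 0 calls, 0% of lengths called, and 0 of these 3 at an unadjusted p below 0.05 in every contrast. Without the gut replicate 1 libraries 1 short J class was called for CD8+ day 6 against spleen and 1 of these lengths for CD4+ gut against liver.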

How the data were processed

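TCR cDNA of sorted cells was amplified with a SMARTer mouse TCR a/b kit and sequenced on a MiSeq, and the authors assembled clonotypes with MiXCR and joined the libraries by amino acid sequence with VDJtools. The deposited values are the fraction of a library's reads in a clonotype. No read or molecule count is given, so depth is unknown and no counting interval can be had. The labels name mm10. The TCRB tables hold 15 library columns each that map to a sample, and 3 further columns per table were not used. TCRA tables were not used here. Members and lists were chosen with earlier results of these data known.

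Each column was divided by its C-to-F/W rows. Shares were compared by exact permutation of log2 values within genotype or site, with 95% intervals from inverting the test, and V, J, length and clonotype features on the scale log2(percent + pseudocount) with limma (version 3.58.1, under R 4.3.3). The pseudocounts were 0.01 (V and J), 0.1 (lengths) and 0.001 (clonotypes), the floors on the mean 0.05%, 0.1% and 0.005%, and clonotypes had to be above 0 in at least 8 libraries. Unmatched bases include D segment bases, and chance matches to germline ends lower their number. Named clonotypes per table were the 6 in most libraries, the 3 highest in each site and the 3 shortest. No nucleotide variants per clonotype are in the tables, so that planned count was not made. Scripts were tested on simulated data.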

Additional observations from a re-analysis of the deposited data

Results flagged for a closer look

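Of 74 groups of 6 liver or gut libraries examined, 10 had 1 library farther from the rest than Dixon's 95% criterion allows. Each flagged value lay above the rest of its group. The criterion flags about 1 in 20 groups by chance if values are normally distributed, which was not checked for these percents. The count is therefore not read as an excess over chance. In CD4+ liver, STAT3koPD-1ko replicate 2 held 15.3% of member frequency in TRBJ2-4 (4.62% to 6.62% in the others) and 0.104% of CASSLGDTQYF. In CD4+ gut, STAT3ko replicate 2 held 27.0% in TRBV15 (12.4% to 16.4% in the others) and WT replicate 2 held 0.105% of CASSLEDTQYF. In CD8+ liver, STAT3ko replicate 2 held 14.5% in TRBJ2-4 (4.62% to 6.83% in the others) and 0.121% of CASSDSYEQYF. STAT3ko replicate 1 of that site held 9.01% in TRBJ2-5, 0.233% of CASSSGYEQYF and 0.332% of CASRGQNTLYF. In CD8+ gut, WT replicate 2 held 12.8% in TRBV13-3 (9.79% to 10.8% in the others). Those of gut replicate 2 are libraries with a low share of listed reads.

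The CD4+ short share moved oppositely between liver and gut in a pair of genotypes. In STAT3ko T cells the gut libraries (3.92% and 4.41%) were above the liver libraries (3.68% and 3.85%), by 0.398 percentage points on average. In STAT3koPD-1ko T cells the gut libraries (3.46% and 3.45%) were below the liver libraries (4.16% and 4.05%), by -0.648 percentage points. The difference between the genotypes was not tested, and the pattern depended on the setting. With a fixed V mix, STAT3ko gut (3.84% and 4.46%) overlapped with liver (3.89% and 3.76%), while STAT3koPD-1ko gut (3.58% and 3.95%) stayed below liver (4.28% and 4.26%). With each clonotype counted once, gut and liver overlapped in STAT3ko (3.73% and 5.36% against 3.81% and 3.78%). They also overlapped in STAT3koPD-1ko T cells (4.08% and 4.32% against 4.24% and 3.99%).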

How the results depend on the processing

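The short share passed no test as defined, and its direction turned under several settings. Values here are log2 differences, gut or liver against spleen, gut against liver, or first against second genotype. Summed without division, gut was lower against spleen (-1.02 in CD4+, -0.54 in CD8+, exact permutation adjusted p = 0.0476 each) and against liver (-0.85 and -0.44, exact permutation adjusted p = 0.00926 each), while CD4+ STAT3ko against WT turned to 0.014 and the CD8+ genotype values to 0.033 (STAT3ko against WT), -0.068 (STAT3koPD-1ko against STAT3ko) and -0.035 (STAT3koPD-1ko against WT). Divided by all listed rows, CD4+ gut was lower against spleen (-0.48, exact permutation adjusted p = 0.0476) and liver (-0.35, exact permutation adjusted p = 0.0370). At 10 residues or fewer CD4+ STAT3ko against WT was 0.070 and CD8+ gut against liver -0.0025. At 12 or fewer CD4+ gut was 0.070 against spleen and 0.086 against liver, CD4+ STAT3ko against WT 0.048 and CD8+ gut against spleen 0.045. With clonotypes of at least 3 libraries CD4+ and CD8+ STAT3ko against WT were 0.013 and 0.012 and CD8+ gut against spleen 0.0037. With each clonotype counted once CD8+ liver was lower than spleen (-0.081, exact permutation adjusted p = 0.0476). CD4+ gut was then 0.00096 against spleen and 0.12 against liver, the CD4+ genotype values 0.0027 (STAT3ko against WT), 0.012 (STAT3koPD-1ko against STAT3ko) and 0.015 (STAT3koPD-1ko against WT), and the CD8+ ones 0.026 (STAT3ko against WT) and -0.014 (STAT3koPD-1ko against STAT3ko). With a fixed V mix CD4+ liver against spleen was 0.013 and STAT3koPD-1ko against STAT3ko 0.0089. Leaving out libraries was chosen after seeing the data: without liver replicate 1 CD4+ liver against spleen was 0.0074 and CD8+ STAT3koPD-1ko against WT -0.017, and without gut replicate 2 CD4+ STAT3koPD-1ko against STAT3ko was 0.023, CD8+ gut against liver -0.076 and CD8+ STAT3ko against WT 0.072. Without gut replicate 1 CD4+ gut against liver was 0.034, CD8+ gut against spleen 0.045 and CD8+ STAT3koPD-1ko against WT -0.029. The cause was not tested for any of these.

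Leaving out 1 library at a time moved the CD4+ share from -0.14 to 0.024 for liver against spleen, from -0.085 to 0.0087 for gut against liver and from -0.11 to 0.032 for STAT3ko against WT. In CD8+ T cells it moved from -0.028 to 0.057 for gut against liver, from -0.064 to 0.077 for STAT3ko against WT and from -0.033 to 0.11 for STAT3koPD-1ko against WT. None of these passed the exact test.

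Among short V classes, the count for CD4+ day 6 against spleen went from 2 to 1 without gut replicate 2, with no filter on low values and with the other pseudocount, and ran from 1 to 2 over the single libraries left out. For CD4+ gut against liver it went from 0 to 3 without gut replicate 1, and to 1 without gut replicate 2, with no filter, with the other pseudocount and with the replicate block, and ran from 0 to 2 over single libraries (2 without STAT3ko gut replicate 2, 1 without STAT3ko gut replicate 1 or STAT3koPD-1ko gut replicate 2). In CD8+ T cells it became 1 for STAT3ko against WT with no filter or the other pseudocount, 1 for STAT3koPD-1ko against STAT3ko and 2 for gut against liver without gut replicate 2, and for STAT3koPD-1ko against WT 3 without gut replicate 2 and 0 without liver replicate 1 or gut replicate 1. Over single libraries it ran from 0 to 1 for CD8+ STAT3ko against WT (without STAT3ko gut replicate 2 or WT liver replicate 2), for CD8+ gut against liver (WT gut replicate 2), and for CD4+ STAT3ko against WT (STAT3ko gut replicate 2) and STAT3koPD-1ko against WT (STAT3koPD-1ko gut replicate 1). Short J classes went from 0 to 1 for CD4+ STAT3ko against WT and STAT3koPD-1ko against STAT3ko without liver replicate 1, likewise from 0 to 1 without STAT3koPD-1ko liver replicate 1 alone, and from 0 to 2 for CD8+ STAT3ko against WT (2 without STAT3ko gut replicate 2, 1 without WT liver replicate 2). Without gut replicate 1, 1 short J class was called for CD8+ day 6 against spleen and 1 length for CD4+ gut against liver. Lengths gave 1 call with no filter for CD4+ STAT3koPD-1ko against STAT3ko and for CD8+ STAT3ko against WT and day 6 against spleen. Single clonotypes gave 1 call for CD8+ STAT3ko against WT without gut replicate 2, and from 0 to 1 without STAT3ko liver replicate 2 there and without STAT3koPD-1ko gut replicate 2 for CD4+ STAT3koPD-1ko against STAT3ko. Short TRBV23 stayed called under each setting run, with 1.74 to 2.05 over single libraries, 1.57 without gut replicate 1, 2.19 without gut replicate 2 and 1.06 with the other pseudocount, and short TRBV16 under each but those without liver replicate 1 or gut replicate 1.

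The differences between replicates 1 and 2 correlated across clonotypes from -0.01 to 0.12, with 0.12 (CD4+) and 0.11 (CD8+) for WT liver and gut as the only values above 0.1, so the numbers were not used as pairs. This check does not bear on the clonotypes that gut replicate 1 shares with both liver replicates of its genotype. With the replicate block the shares of gut against liver gave an exact permutation p of 0.625 in CD4+ and 0.781 in CD8+ T cells, and the genotype shares cannot pass the exact test with or without it. Then 1 short V class was called for CD4+ gut against liver, and short TRBV16 kept its call (-1.15, limma adjusted p = 0.0143). Depth is unknown, so a value of 0 gives no upper limit, and rearrangements that share an amino acid sequence are merged. The 1 spleen library per genotype leaves genotypes before HCT without replicates.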
